A study of Mus musculus with 24 samples.

Results

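Bone marrow-derived macrophages (BMDMs) that had been kept in medium conditioned by wild-type lung carcinoma cells were compared with and without CDDO-Me across all genes of the expression table. The comparison rests on 6 of the 24 libraries, chosen by their labels alone: 3 libraries of wild-type conditioned medium with CDDO-Me (WT CM/CDDO-Me) and 3 of the same medium with vehicle (WT CM/vehicle). Of 35770 gene names in the table, 13661 exceeded 1 TPM (transcripts per 1e6, a level corrected for transcript length and summed over genes to a fixed total) in at least 3 of the 24 libraries and were tested. The macrophages were grown from the bone marrow of C57BL/6 mice with M-CSF and carried no edited gene in any group. The conditioned medium (CM) came from LL2, a mouse Lewis lung carcinoma line, which had conditioned it for 48 h. The CM made up 75% of the medium given to the macrophages. CDDO-Me (bardoxolone methyl) was given at 100 nM for 24 h. The other 18 libraries are the same drug and vehicle pair in unconditioned medium (media) and in CM from LL2 cells in which KEAP1 or NRF2 had been knocked out (KEAP1 KO CM, NRF2 KO CM), with 3 libraries a group. What limits the model is that the macrophages met tumor products rather than tumor cells. The labels also do not say whether the 3 libraries of a group came from separate mice, so p-values measure only the spread between libraries. That spread was estimated per gene within the groups of all 24 libraries, not from these 6 alone, and standard errors share it.

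CDDO-Me is a synthetic triterpenoid. It reacts with cysteines of KEAP1, the protein that normally hands the transcription factor NRF2 to the proteasome, so that NRF2 accumulates and switches on genes for glutathione and thioredoxin metabolism, NADPH supply and heme and quinone detoxification. Macrophages in tumors often take on an alternatively activated state, known for arginase, mannose receptor and resistin-like alpha and driven in culture by interleukin-4 through STAT6. Interferon gamma, acting through JAK kinases and IRF1, drives the opposite state, with guanylate-binding proteins, chemokines of the CXCR3 family and antigen presentation.

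In WT CM, CDDO-Me went with a change of state that reached far past the NRF2 genes. Interferon-responsive genes rose, many of them from near 0 to high levels, antigen presentation genes of class I and class II rose, the alternative activation genes fell, in some cases to 0, and the genes of sterol synthesis, cell division and lysosomal proteases fell. At an adjusted p under 0.05 (limma, Benjamini-Hochberg), 3812 of 13661 genes were called (27.9%), of which 1976 were higher (14.5%) and 1836 lower (13.4%) with CDDO-Me. A change of at least 1 on the log2 scale was called for 906 genes in the higher direction (6.63%) and 821 in the lower (6.01%). The groups did not overlap for 7315 genes (53.5%). Without scaling between libraries the median of all genes moved from -0.01 to -0.12, and 1581 genes were higher against 2459 lower, so that 39.1% of the calls were higher instead of 51.8%. When replicate 3 of NRF2 KO CM/vehicle and of NRF2 KO CM/CDDO-Me, which share in the estimate of spread, were left out, 5839 genes were called. With the 6 libraries alone 4992 of 12324 genes were called.

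**Figure D1:**
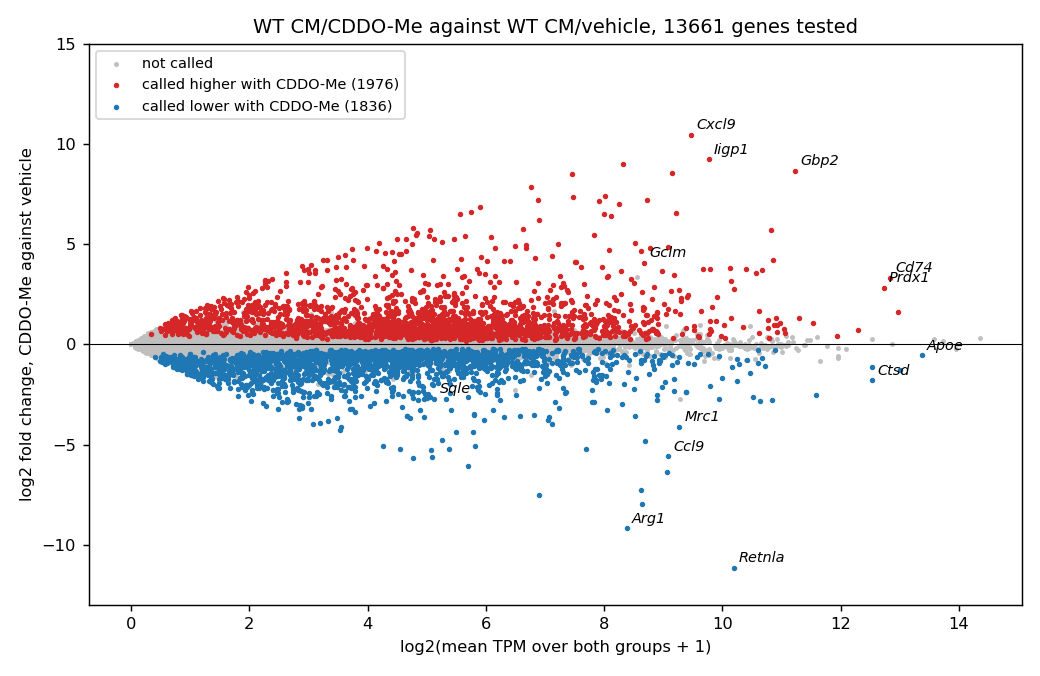
Log2 fold change of WT CM/CDDO-Me against WT CM/vehicle (y axis) plotted against the log2 of the mean TPM over both groups plus 1 (x axis), each point 1 of 13661 tested genes. The 1976 red and 1836 blue points passed the test. The largest changes in both directions, such as those of Cxcl9, Gbp2, Retnla and Arg1, lie at high means. With 1 added to each value, a change of that size requires a high level in at least 1 group, so this position was set by the scale.

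The 6 libraries resembled each other by group. Their Pearson correlations on the log2 scale were 0.981 to 0.990 within a group and 0.905 to 0.923 between the groups. Between 17817 and 18150 genes were above 0 TPM in each. TPM holds no read depth, and the depth of a single library is not known from the files. Mitochondrial transcripts made up 1.54 to 2.08% of the TPM with CDDO-Me and 2.87 to 3.32% with vehicle, and the scaling factors were 0.8898 to 0.9441 against 0.9679 to 1.0157; their part in the results was not tested. The summed TPM of 10 macrophage markers was 15400 to 18700 with CDDO-Me and 17900 to 18500 with vehicle. Lyz2 (lysozyme) stood at 13513, 13303 and 12966 TPM with vehicle and 15375, 14254 and 12084 TPM with CDDO-Me, so the labelled cell type was carried by its defining markers in both groups. Markers of B cells, NK cells, mast cells, erythroid cells and epithelium summed to under 5 TPM in every one of the 6 libraries, and those of T cells to 6.00 to 7.39 TPM. Neutrophil markers summed to 33.5 to 60.2 TPM with CDDO-Me and 11.7 to 38.5 TPM with vehicle, with S100a8 called higher. Dendritic cell markers summed to 100 to 127 TPM with CDDO-Me and 4.11 to 5.62 TPM with vehicle. With CDDO-Me almost all of the sum was Clec9a and with vehicle most of it was Cd209a, which was called lower. The 10 fibroblast and stromal markers summed to 266 to 714 TPM with CDDO-Me and 682 to 1300 TPM with vehicle, with 1 of the 10, Pdgfra, called lower. In bulk RNA, fewer cells of a type and less RNA per cell cannot be told apart.

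Below, values of a gene are TPM in replicates 1, 2 and 3, fold changes are CDDO-Me against vehicle on the scale log2(scaled TPM + 1) with their standard errors, and every group has n = 3. A member called in a list of few calls is named for that reason, after its value was seen. Of all genes tested, 14.5% were called higher and 13.4% lower, and 53.5% had groups without overlap. Counts of members called in WT CM and statements of separate groups below stand against these shares. Genes named for the largest rise or fall were chosen for separate groups.

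The NRF2 pathway was raised, as a list: 28 of its 41 tested members were higher and 1 was lower, against 14.5% and 13.4% of all genes, and the median change was 0.94. In glutathione synthesis, Gclm, the modifier subunit of the enzyme that makes the glutathione precursor, stood at 50.2, 43.5 and 53 TPM with vehicle and 810.0, 749 and 741 TPM with CDDO-Me, without overlap, a log2 fold change of 4.08 ± 0.27 (adjusted p = 3.25e-10). Slc7a11, the cystine importer that feeds the same pathway, rose by 2.06 ± 0.36. Gclc, the catalytic subunit, moved less, from 19.7, 20.2 and 21.9 TPM to 27.7, 28.8 and 36.1 TPM. Its groups did not overlap, but its change of 0.68 ± 0.27 did not pass the test (adjusted p = 0.068), and passed it when the replicates 3 of NRF2 KO CM were left out.

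The quinone reductase Nqo1, a standard readout of NRF2, stood at 2.83, 2.45 and 4.23 TPM with vehicle and 41.6, 42.7 and 60.5 TPM with CDDO-Me. That is a rise of 3.69 ± 0.33 (adjusted p = 3.03e-08), from a low level, with all 3 treated libraries far above all 3 vehicle libraries. Blvrb, which reduces biliverdin, went from 225, 219 and 243 TPM to 1047, 1031 and 1006 TPM. Hmox1, heme oxygenase 1, was already abundant with vehicle at 350.4, 369.8 and 318 TPM and reached 564, 533 and 537 TPM, a rise of 0.79 ± 0.17 (adjusted p = 0.00144). Gstm1, a glutathione transferase, was the weakest of the named enzymes, at 193, 163 and 204 TPM and 255, 223 and 257 TPM. Its call (adjusted p = 0.0258) was lost when any of 4 libraries was left out, namely vehicle replicates 1 or 2 or CDDO-Me replicates 1 or 3.

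Of the thioredoxin genes, which pass electrons from NADPH to oxidized proteins and peroxides, 4 of 5 rose, and the peroxiredoxin Prdx6 was not called. Prdx1, a peroxiredoxin, went from 1803, 1841 and 1804 TPM to 12608, 11029 and 11602 TPM. Txn1, thioredoxin itself, rose from 289.6, 335 and 342 TPM to 1712, 1742 and 2626 TPM, or by 2.76 ± 0.18. Srxn1, which repairs peroxiredoxins, rose by 2.03 ± 0.20, and Txnrd1, the thioredoxin reductase, by 1.40 ± 0.16. The exporter of glutathione conjugates Abcc1 rose from 30.2, 31.7 and 30.9 TPM to 139, 131 and 114 TPM. The treated and vehicle libraries did not overlap for any of these 5 genes.

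The regulators themselves moved less. Keap1 rose from 38.6, 36.1 and 38.1 TPM to 62.2, 61.7 and 61 TPM, or by 0.83 ± 0.21 (adjusted p = 0.00552), and Sqstm1, the adaptor p62 that binds KEAP1, by 0.57 ± 0.14. The transcript of NRF2 itself, Nfe2l2, was lower in all 3 treated libraries, at 119.6, 111 and 90.6 TPM against 191, 182 and 173 TPM, but the change of -0.64 ± 0.25 did not pass the test (adjusted p = 0.0615). It passed when the replicates 3 of NRF2 KO CM were left out. The member called lower was Idh1, the cytosolic isocitrate dehydrogenase, an NADPH source, which fell from 239, 217 and 292 TPM to 74.9, 77.4 and 92.3 TPM and was named after its values were seen. Pgd and G6pdx, the NADPH-making enzymes of the pentose phosphate pathway, also named after their values were seen, rose by 1.54 ± 0.13 and 1.23 ± 0.11.

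Promoters of Gclm and Prdx1, both raised without overlap, are shown because NRF2 is known to bind the antioxidant response element, whose core is TGACNNNGC. The sequences are the 250 bases before the start of the gene from RefSeq (GRCm38.p6), 5′ to 3′ on the gene's strand, with the match to the core, on either strand, in capitals. Gclm lies on the forward strand at chr3:122245307-122245556 and Prdx1 on the forward strand at chr4:116685349-116685598.
Gclm: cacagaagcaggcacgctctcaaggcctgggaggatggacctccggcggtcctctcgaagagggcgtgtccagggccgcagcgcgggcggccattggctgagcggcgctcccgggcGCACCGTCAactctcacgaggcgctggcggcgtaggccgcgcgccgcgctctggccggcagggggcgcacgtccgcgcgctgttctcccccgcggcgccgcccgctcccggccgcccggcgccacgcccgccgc
Prdx1: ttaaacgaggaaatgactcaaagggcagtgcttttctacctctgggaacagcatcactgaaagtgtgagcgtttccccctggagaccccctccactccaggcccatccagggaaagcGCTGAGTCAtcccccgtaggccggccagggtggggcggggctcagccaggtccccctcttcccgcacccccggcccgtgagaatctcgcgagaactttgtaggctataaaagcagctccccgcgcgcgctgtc
The capitals begin 134 bases before the start in Gclm and 133 bases before it in Prdx1. Of the 41 tested members of the list, 34 had a promoter in the RefSeq table, and 12 of these held the core within 250 bases before and 50 after the start (35.3%), against 12.5% of all 27025 promoters. The core overlapped a sterol element, described below, in 6 of all promoters and a gamma-activated site in 1.

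In control media the same drug raised the NRF2 list by a median of 1.48, with 32 of the 41 members higher, against 3.23% of all genes higher and 2.79% lower there. The difference between the media was tested gene by gene with an interaction term, which found the CDDO-Me effect to be smaller in WT CM for 11 members and larger for 2, Txn1 and the small MAF protein Mafk, against 6.73% and 8.59% of all genes. Gclc rose by 2.11 ± 0.27 in media and the effect in WT CM was lower by 1.43 ± 0.38 (adjusted p of the difference = 0.0131). The same held for Gstm1, with a difference of -0.96 ± 0.24 (adjusted p = 0.00882), for Hmox1, with -0.78 ± 0.24 (adjusted p = 0.0343), and for Txnrd1, with -0.68 ± 0.22 (adjusted p = 0.0461). The glutathione transferase Gsta3, named after its values were seen, differed most among the 11 (difference -3.07 ± 0.46, adjusted p = 5.97e-05), from a mean of 1.87 to 89 TPM in media and from 0.621, 0.916 and 1.2 TPM to 6.92, 4.09 and 5.94 TPM in WT CM. Txn1 went the other way: its rise was larger in WT CM by 1.71 ± 0.26 (adjusted p = 7.26e-05). For Gclm, Nqo1, Prdx1 and Slc7a11 the difference did not pass the test.

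**Figure D2:**
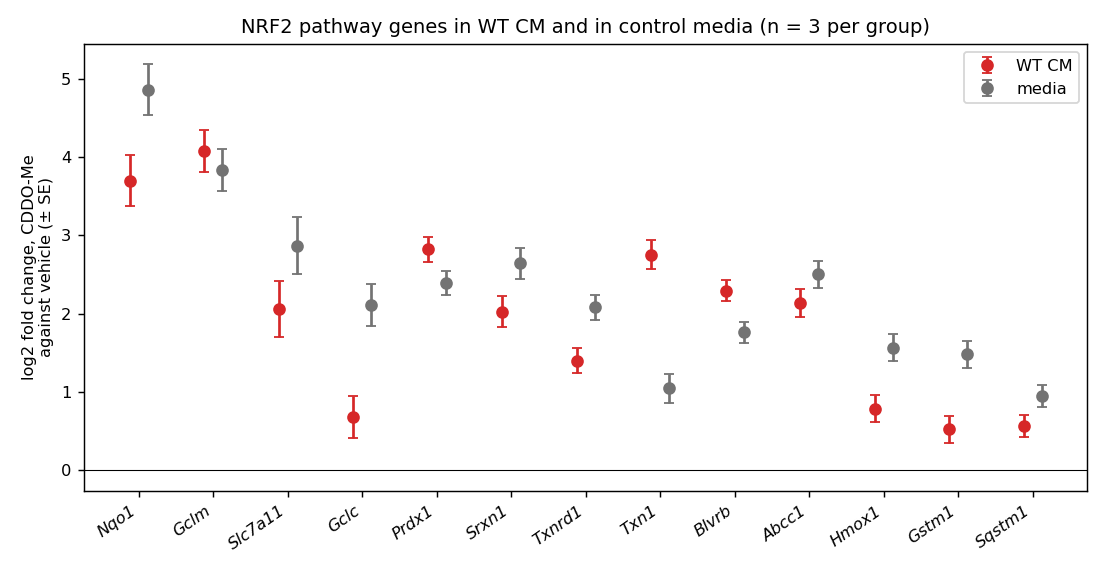
Log2 fold change of CDDO-Me against vehicle with its standard error for 13 genes of the NRF2 pathway, in WT CM (red) and in control media (grey). The points of Gclm and Prdx1 lie close together, those of Gclc, Hmox1, Gstm1 and Txnrd1 are lower in WT CM, and Txn1 is higher there.

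The interferon gamma response had the largest median change of the 25 lists, 4.98. All 34 tested members were higher with CDDO-Me and none was lower, against 14.5% and 13.4% of all genes. Members near the floor with vehicle, such as Cxcl9 and Gbp2b, could not come out lower. The list was also chosen with earlier results of these data known, so the count is description only. Under the alternatives 32 to 34 members were called. Cxcl9, a chemokine that attracts T cells through CXCR3, stood at 0.0352, 0.0471 and 0.0926 TPM with vehicle and 1792, 1458 and 981 TPM with CDDO-Me, the largest rise of all genes named by the rule of size (10.48 ± 0.23, adjusted p = 1.65e-17). Cxcl10, which binds the same receptor, went from 0.108, 0.0727 and 0 TPM to 361, 329 and 358 TPM. Ccl5, a chemokine for T cells and monocytes, went from 2.53, 1.51 and 1.46 TPM to 1806, 1149.5 and 433 TPM. The treated libraries spread over more than 4 times for Ccl5. All of these were near the floor in vehicle-treated cells, so their ratios rest on very low denominators.

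The GTPases that attack vacuoles of intracellular microbes rose together: 11 of 11 guanylate-binding proteins, with a median change of 6.87, and 7 of 7 immunity-related GTPases, with a median of 6.58. Gbp2 reached 4494, 4152 and 5675 TPM from 10.6, 8.56 and 17.5 TPM (8.67 ± 0.22). Gbp4 reached 604, 607 and 703 TPM from 0.107, 0.207 and 0.893 TPM. Gbp2b was listed at 0 in all 3 vehicle libraries and at 253, 177 and 213 TPM with CDDO-Me, and reads of Gbp2 and Gbp2b, like those of Tgtp1 and Tgtp2, may be split between near-identical copies. Iigp1, an immunity-related GTPase, went from 1.97, 1.76 and 2.69 TPM to 1647, 1688 and 1879.6 TPM, with the 3 treated libraries close together (9.26 ± 0.15, adjusted p = 3.28e-19). Igtp and Irgm2 of the same family rose by 6.58 ± 0.14 and 4.42 ± 0.10. Serpina3f, a protease inhibitor outside the list, rose from 0.73, 0.408 and 1.15 TPM to 226, 236 and 233 TPM.

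Transcription factors upstream of these genes rose too. Irf1 went from 74.6, 56.8 and 112 TPM to 889.5, 915 and 986 TPM (3.69 ± 0.24, adjusted p = 4.19e-10) and Irf8 from 104, 88.4 and 107 TPM to 443, 485 and 486 TPM. Ciita, the master regulator of class II genes, went from 4.67, 4.54 and 9.74 TPM to 190.0, 185 and 214 TPM. None of these 3 genes had overlapping groups. Socs1, the feedback inhibitor of JAK kinases, rose from 22.3, 23.1 and 25.8 TPM to 111, 111 and 125 TPM. Among the effectors, Cd274, which encodes the checkpoint ligand PD-L1, rose by 3.00 ± 0.29, Acod1, which makes itaconate, went from 0.0896, 0.0388 and 0.306 TPM to 41.8, 29.2 and 32.2 TPM, and Fcgr1, the high-affinity Fc receptor, rose by 3.35 ± 0.16. Nos2, the inducible nitric oxide synthase, stayed low, at 0.0616, 0.117 and 0.0754 TPM and 10.2, 9.08 and 2.09 TPM, although its call held (adjusted p = 0.000134). Ido1, which degrades tryptophan, did not exceed 1.07 TPM in the 6 libraries.

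The type I interferon list had 34 of 37 tested members higher and none lower, against 14.5% and 13.4% of all genes. Its median change was 2.04. The 3 members without a call were Cgas, Bst2 and Ifitm3. Ifit3, an antiviral effector, went from 0.996, 1.09 and 1.6 TPM to 54, 56.5 and 109.6 TPM, and Isg15, the ubiquitin-like modifier, from 11.5, 8.92 and 9.88 TPM to 110.3, 117 and 117 TPM (3.52 ± 0.20, adjusted p = 6.53e-11). Zbp1, a sensor of Z-form nucleic acid, went from 20.4, 14.2 and 31.1 TPM to 340.3, 311 and 388 TPM. Irf7 rose by 2.15 ± 0.20, Usp18 by 2.51 ± 0.21 and Mx1 by 2.27 ± 0.32. Rsad2 (viperin), which is often among the strongest type I interferon genes, reached 4.83, 5.89 and 6.58 TPM from 2.03, 1.56 and 1.23 TPM. The groups did not overlap for any of these 7 genes.

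The interferon transcripts themselves were not part of this rise. Of 21 interferon ligand genes in the table, looked up after the values above were seen, 18 were listed at 0 in all 6 libraries and none exceeded 0.427 TPM. Ifng reached 0.0637 TPM at most, and Ifnb1 was listed at 0. Of 7 genes for interferon receptors and their JAK kinases, 2 were called higher (Jak2 and Tyk2) and none lower, against 14.5% and 13.4% of all genes. Jak2 lost its call without scaling and without any of 4 libraries (vehicle replicates 1 or 2, CDDO-Me replicates 1 or 3), while 2 members were called lower without scaling or with array weights. Ifngr1, the ligand-binding chain for interferon gamma, had a change of -0.39 ± 0.16 that did not pass the test but was called lower under 5 of the 17 alternatives, with an adjusted p (limma) of 0.00753 to 0.281 over all of them.

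Promoters of 3 of these genes are shown because each holds a known element: the interferon-stimulated response element, searched as GAAA, any 2 bases and GAAA again, or the gamma-activated site of genes induced by interferon gamma, searched as TTCNNNGAA. The capitals mark the match on either strand, and the coordinates are again GRCm38.p6. Cxcl10 lies on the reverse strand at chr5:92348890-92349139, Gbp2 on the forward strand at chr3:142620413-142620662 and Irf1 on the forward strand at chr11:53769764-53770013.
Cxcl10: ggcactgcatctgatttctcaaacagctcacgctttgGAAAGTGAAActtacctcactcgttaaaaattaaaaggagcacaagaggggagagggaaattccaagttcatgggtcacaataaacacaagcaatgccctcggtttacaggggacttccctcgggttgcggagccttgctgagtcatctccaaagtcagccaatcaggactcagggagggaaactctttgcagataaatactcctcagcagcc
Gbp2: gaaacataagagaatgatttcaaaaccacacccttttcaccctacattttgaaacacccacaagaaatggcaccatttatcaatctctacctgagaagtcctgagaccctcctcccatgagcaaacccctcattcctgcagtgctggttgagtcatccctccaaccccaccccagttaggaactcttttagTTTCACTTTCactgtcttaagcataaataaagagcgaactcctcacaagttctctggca
Irf1: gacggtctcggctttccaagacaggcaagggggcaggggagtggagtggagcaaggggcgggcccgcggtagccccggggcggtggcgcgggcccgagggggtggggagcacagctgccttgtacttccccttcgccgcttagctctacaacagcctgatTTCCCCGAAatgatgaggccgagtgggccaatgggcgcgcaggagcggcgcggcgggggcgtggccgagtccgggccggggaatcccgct
The first element was found in 3.49% and the second in 8.47% of all 27025 promoters, and matches to both overlapped in 21. Shares per list are not given for the interferon lists, since fewer than 80% of their members had a promoter in the table.

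**Figure D3:**
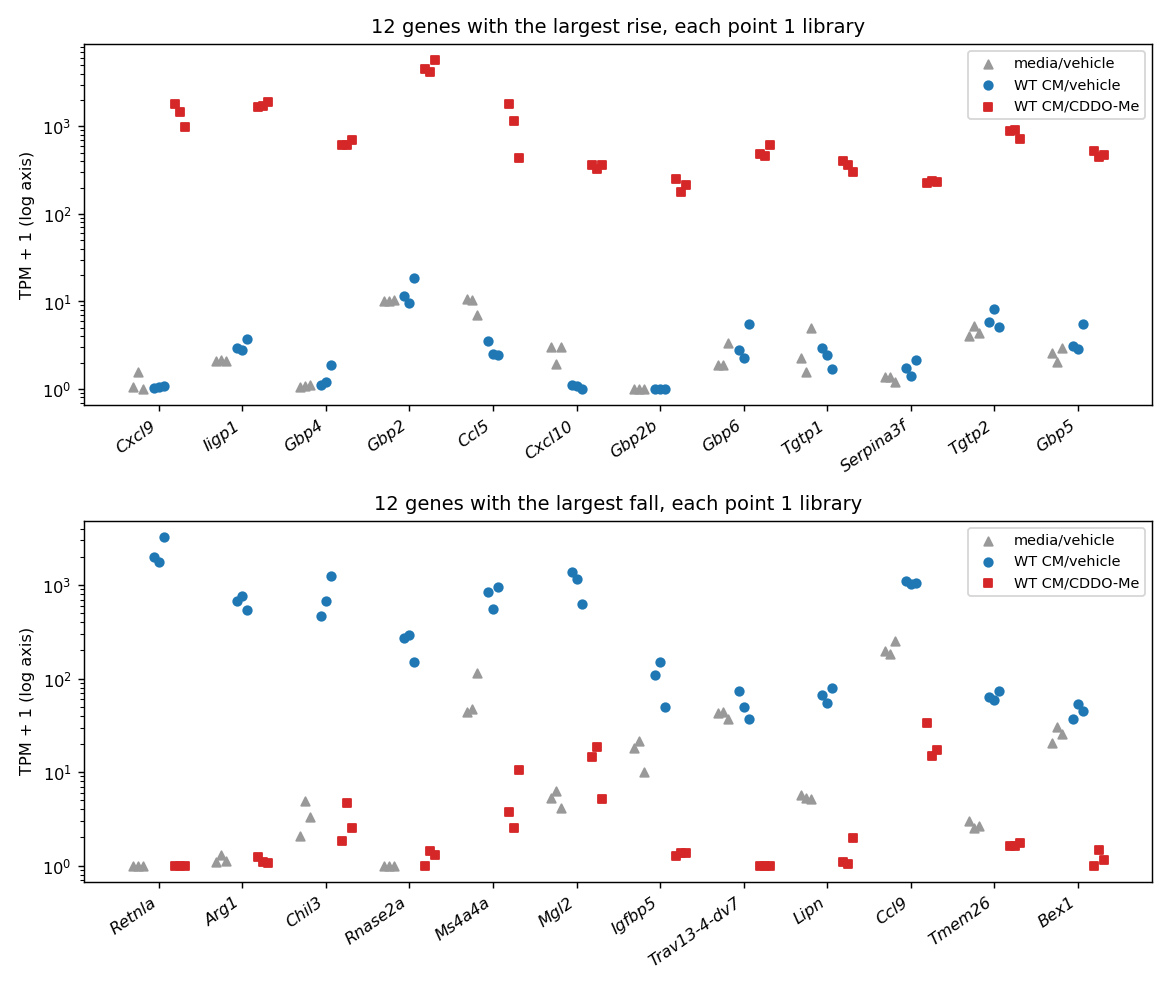
TPM plus 1 on a log axis for the 12 genes with the largest rise (top) and the 12 with the largest fall (bottom), each point 1 library of media/vehicle (grey triangles), WT CM/vehicle (blue circles) or WT CM/CDDO-Me (red squares). The genes were chosen among those without overlap, so the separation of red squares from blue circles was set by the choice. For Retnla, Arg1 and Rnase2a the red squares lie at or near the level of media/vehicle.

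Antigen presentation rose in both arms. Of 21 class I genes 19 were higher, with a median change of 2.06, and of 12 class II genes 10 were higher, with a median of 2.97; none was lower in either list. Calr and Pdia3 of the first list, chaperones of peptide loading, and Ctss and Cd80 of the second were not called. Tap1, the peptide transporter, went from 25.6, 27 and 26.4 TPM to 362, 351 and 377 TPM (3.87 ± 0.28), and Psmb8, a subunit of the immunoproteasome, from 159, 159 and 175 TPM to 942, 924 and 1018 TPM. B2m, the light chain of class I, was abundant already, at 4219.6, 3766 and 4552 TPM with vehicle and 11945, 11791 and 11677 TPM with CDDO-Me. H2-K1, a class I heavy chain, rose by 1.32 ± 0.19. The class I genes of the H2-Q and H2-T groups share sequence, so the division of reads among them is uncertain. Of the class I list, 19 of 21 members had a promoter in the RefSeq table, and 5 of these (26.3%) held the interferon-stimulated response element, against 3.49% of all promoters.

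The class II chains rose together: H2-Ab1 went from 198, 164 and 283 TPM to 3501, 3409 and 3616 TPM (4.19 ± 0.31, adjusted p = 1.93e-09) and H2-Aa from 221, 176 and 384 TPM to 3021, 2818 and 3139 TPM. Cd74, the invariant chain that escorts class II, reached 13419, 12593 and 13314 TPM from 1344, 1020.1 and 2135 TPM. Vehicle replicate 3 was the highest of its group for these chains, and the treated libraries lay within a narrow range. Cd86, a costimulatory ligand for T cells named after its values were seen, was 16.3, 7.6 and 15.5 TPM with vehicle and 75.7, 66.1 and 76.1 TPM with CDDO-Me, without overlap.

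The core proteasome, by contrast with the immunoproteasome, had 10 of 27 members higher, with a median change of 0.30 and a largest of 1.17. This count depended on the estimate of spread and was 20 with array weights, 19 without the NRF2 KO CM replicates 3 and 18 with the 6 libraries alone. Psmb5, a catalytic core subunit, was 203, 216 and 191 TPM with vehicle and 239.8, 238 and 228 TPM with CDDO-Me (adjusted p = 0.623). It was called higher under these same 3 alternatives.

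Alternative activation fell: 25 of 38 tested members were lower and 3 higher, against 13.4% and 14.5% of all genes, and the median change was -1.63. Retnla, which encodes resistin-like alpha, stood at 1990.0, 1753 and 3262 TPM with vehicle and was listed at 0 in all 3 treated libraries, and also at 0 in every library of media with or without CDDO-Me. Arg1 (arginase 1) fell from 681, 765 and 544 TPM to 0.239, 0.0823 and 0.0554 TPM, a change of -9.19 ± 0.21 (adjusted p = 2.17e-17). Chil3, the chitinase-like protein Ym1, fell from 461, 668 and 1257 TPM to 0.856, 3.7 and 1.56 TPM. With CDDO-Me these 3 classical markers lay at or near the floor. Their groups did not overlap, which the rule of largest falls required and which held for 53.5% of all genes.

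Of 11 lectins and surface receptors of this state 5 were lower (Mrc1, Mgl2, Clec10a, Cd163 and Cd83) and 2 higher (Il4ra and Il13ra1), with a median change of -0.60. Mrc1, the mannose receptor, went from 1306, 1193 and 1015 TPM to 59.9, 76.2 and 48.3 TPM (-4.12 ± 0.23), Mgl2, a galactose-type lectin, from 1394, 1155 and 620.4 TPM to 13.6, 17.5 and 4.1 TPM, and its relative Clec10a from 408, 356 and 295 TPM to 95.9, 102 and 77.7 TPM. Of the chemokines of this state, Ccl24, which attracts eosinophils, fell from 81.2, 54.6 and 104 TPM to 1.09, 0.933 and 1.04 TPM. Ccl17 was low throughout, at 0.823, 0.924 and 7.48 TPM with vehicle and 0 in the 3 treated libraries. The eosinophil-type ribonuclease Rnase2a fell from 273, 291 and 149 TPM to 0, 0.422 and 0.31 TPM, and the membrane protein Ms4a4a from 845, 558 and 953 TPM to 2.71, 1.53 and 9.42 TPM. For Mrc1, Mgl2, Clec10a, Ccl24, Ccl17, Rnase2a and Ms4a4a the lowest vehicle library was above the highest treated library.

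The regulators behind the state did not all fall. Irf4 fell from 8.83, 8.79 and 18.4 TPM to 0.18, 0.201 and 1.19 TPM, Pparg, the fatty acid receptor PPAR gamma, from 81.8, 88.8 and 90.3 TPM to 20.0, 23.9 and 24.4 TPM, and Egr2 from 70.8, 81.2 and 101 TPM to 25.2, 32.3 and 27.1 TPM. Stat6, by contrast, was 115, 116 and 111 TPM with vehicle and 106, 111 and 107 TPM with CDDO-Me, a change of 0.05 ± 0.12 whose sign turned to -0.08 without scaling and which did not pass the test. Il4ra, the receptor chain for interleukin-4, rose from 140.3, 127 and 95.3 TPM to 349, 340.0 and 259 TPM (1.52 ± 0.12, adjusted p = 9.71e-09). Il4 itself, looked up after these values were seen, was 15, 13.8 and 18.5 TPM with vehicle and 6.21, 3.55 and 2.71 TPM with CDDO-Me, a fall called by the test (adjusted p = 0.00199). In media/vehicle its mean was 20.6 TPM, where Retnla and Arg1 were at or near 0. The other members called higher were Il13ra1, a receptor chain for interleukin-13, and Ch25h, an enzyme that makes an oxysterol.

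The promoter of Retnla is shown because the gene was listed at 0 with CDDO-Me and it holds a match to the site bound by STAT6, searched as TTC and GAA around any 4 bases and marked in capitals. It lies on the forward strand at chr16:48842359-48842608 (GRCm38.p6).
Retnla: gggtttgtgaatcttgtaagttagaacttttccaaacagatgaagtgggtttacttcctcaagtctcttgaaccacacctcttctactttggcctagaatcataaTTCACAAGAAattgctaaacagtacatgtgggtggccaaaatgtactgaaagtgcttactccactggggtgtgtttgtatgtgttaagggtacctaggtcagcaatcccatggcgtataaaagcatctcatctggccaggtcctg
Such a match was present in 6.99% of all promoters, did not overlap a gamma-activated site in any and overlapped the interferon-stimulated response element in 15.

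Sterol synthesis fell as a block. Of 27 tested members 22 were lower and 1, Pmvk, was higher, with a median change of -1.64. Idi1, the isopentenyl isomerase, fell from 75.7, 73 and 80.7 TPM to 5.59, 8.22 and 5.52 TPM (-3.28 ± 0.15), Sqle, the squalene epoxidase, from 57.9, 55.9 and 67.5 TPM to 6.92, 8.34 and 7.54 TPM, and Hmgcs1, which makes HMG-CoA, from 90.2, 91.2 and 102 TPM to 16.6, 22.5 and 18.7 TPM. All 3 enzymes had separate groups. Insig1, the sterol sensor of the endoplasmic reticulum, fell by 2.27 ± 0.13 and Srebf2, which encodes the master activator SREBP2, by 1.25 ± 0.11 on the log2 scale.

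The promoter of Hmgcs1 is shown because it holds the sterol response element, searched as TCACNCCAC and marked in capitals, at chr13:119690101-119690350 on the forward strand (GRCm38.p6).
Hmgcs1: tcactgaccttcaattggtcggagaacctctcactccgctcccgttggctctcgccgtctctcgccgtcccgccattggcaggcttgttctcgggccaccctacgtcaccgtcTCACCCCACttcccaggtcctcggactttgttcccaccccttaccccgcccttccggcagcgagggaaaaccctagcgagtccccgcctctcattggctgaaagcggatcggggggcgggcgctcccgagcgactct
The element was found in 1.22% of all promoters.

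Fatty acid synthesis followed, with 9 of 12 members lower, Fads1 higher and a median of -1.15. Fasn, the fatty acid synthase, fell from 45.7, 52 and 38.4 TPM to 9.14, 12.6 and 10.4 TPM and Scd1, which desaturates stearate, from 28.4, 31.3 and 20.1 TPM to 4.51, 7.03 and 7.21 TPM, while Srebf1 moved by -0.65 ± 0.13. Cholesterol efflux genes were mixed, with 4 higher (Nr1h2, Abcg1, Mylip and Ch25h) and 5 lower (Nr1h3, Abca1, Apoe, Lpcat3 and Npc1) of 12. These counts fell to 2 higher without scaling, without vehicle replicate 3 or without CDDO-Me replicate 1, and to 3 lower without CDDO-Me replicate 2. Apoe lost its call without the filter on low values and without vehicle replicate 1 or 2 or CDDO-Me replicate 3. Npc1 lost its call without vehicle replicate 3 or CDDO-Me replicate 1 or 2. Abca1, the efflux pump for cholesterol, fell from 20.0, 20.3 and 18.4 TPM to 12.7, 11.9 and 12.7 TPM. The median of the sterol list was also negative in media (-0.53, 14 of 27 lower, against 2.79% of all genes there). The interaction term found 18 members to fall further in WT CM, against 6.73% of all genes. For Sqle the fall in media was -0.81 ± 0.13 and the difference -1.91 ± 0.19 (adjusted p = 3.94e-07).

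Cell cycle genes fell as well: 21 of 27 members were lower and 1, the inhibitor Cdkn1a, was higher, with a median of -1.39. Cdkn1a lost its call without scaling, without the filter on low values and without any of 4 libraries (vehicle replicates 1 or 3, CDDO-Me replicates 1 or 2). Mki67, the proliferation marker Ki-67, fell from 14.1, 15.7 and 11.1 TPM to 0.993, 1.54 and 1.55 TPM (-2.55 ± 0.31), and Cdk1, the mitotic kinase, from 72.6, 70.0 and 61 TPM to 21.1, 22.3 and 24.4 TPM. Top2a was 43.9, 50.4 and 31 TPM with vehicle and 22, 27 and 25.8 TPM with CDDO-Me, without overlap. It did not pass the test but was called lower with array weights, with the 6 libraries alone and without the NRF2 KO CM replicates 3. Pcna was 388, 390.5 and 422 TPM with vehicle and 271, 303 and 422 TPM with CDDO-Me. It did not pass the test, nor under any of the 17 alternatives. In media 7 members of the list were lower, against 2.79% of all genes there, with a median of -0.65. By the interaction term 12 members fell further in WT CM, against 6.73% of all genes.

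Of 15 lysosomal genes 10 were lower and 1, Ctsh, was higher, with a median of -0.80. Ctsb and Ctsd, abundant cathepsins, went from 12128, 11768 and 11884 TPM to 4136, 4474 and 5020.0 TPM and from 9727, 10056 and 8416 TPM to 2428, 2604 and 2412 TPM. Ctsl fell from 2168, 2529 and 2967 TPM to 367, 374 and 367 TPM, and Gpnmb, a glycoprotein of lipid-laden macrophages, from 5270.4, 5059.6 and 5570.4 TPM to 667, 743 and 1141 TPM. Every treated library lay below every vehicle library for these 4 genes.

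**Figure D4:**
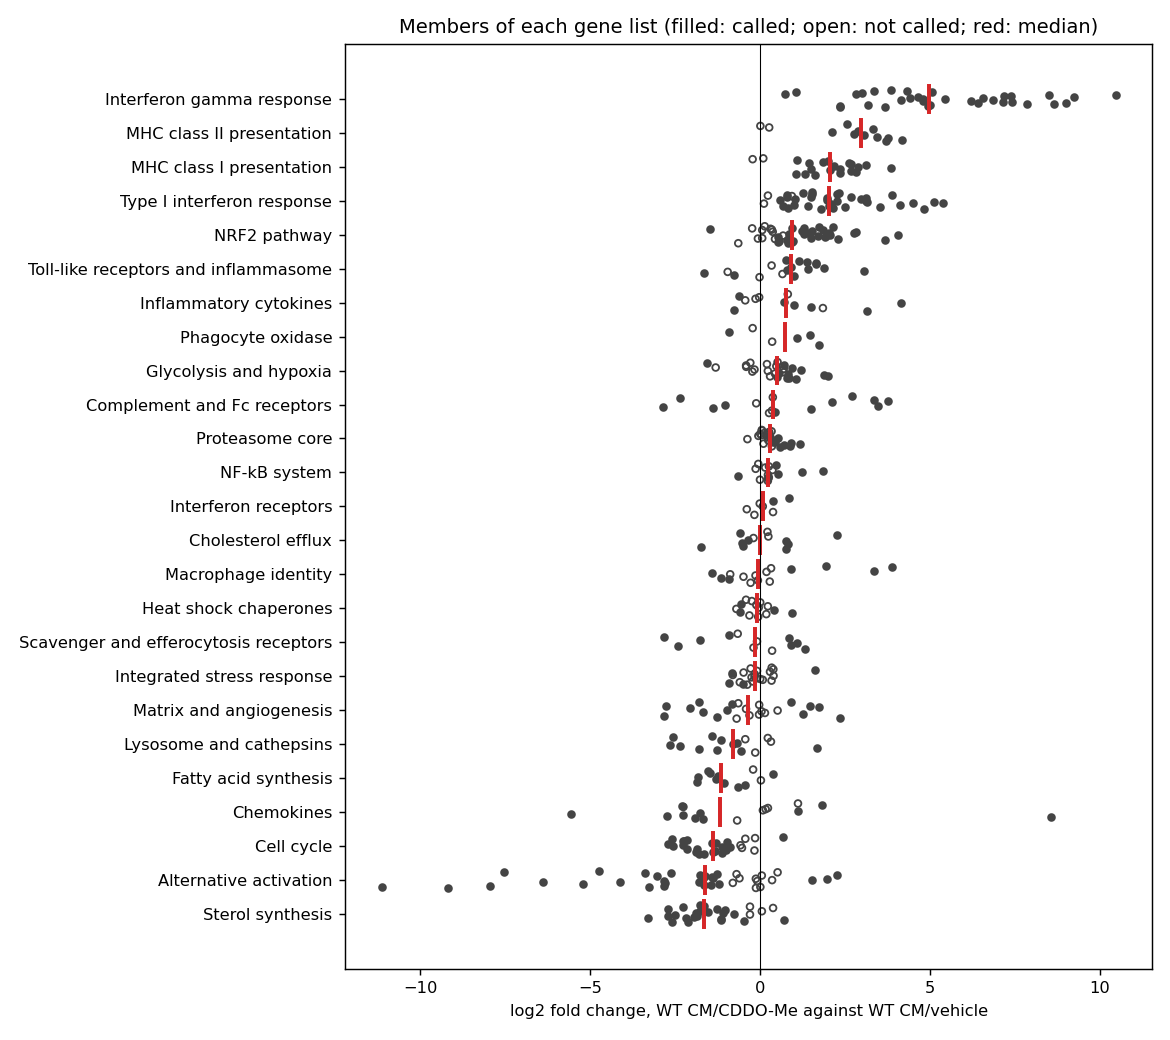
Log2 fold change of WT CM/CDDO-Me against WT CM/vehicle (x axis) for the tested members of each of the 25 gene lists, ordered by median (red bar), with called genes filled and the others open. The interferon gamma list lies highest, with a median of 4.98, and sterol synthesis lowest, with -1.64, while interferon receptors (0.08) and heat shock chaperones (-0.08) lie close to 0.

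Inflammatory and innate immune genes gave a mixed picture, to be read against 14.5% of all genes higher and 13.4% lower. Of 12 tested cytokines 5 were higher (Tnf, Il6, Il18, Il27 and Il10) and 2 lower (Il1a and Osm). Il6 lost its call with pseudocount 5 and without vehicle replicate 3 or CDDO-Me replicate 1. Il10 lost its call without scaling, without the filter on low values, with pseudocount 0.1 and with the compared groups alone. Il10 also lost it without vehicle replicate 1 or 2 or CDDO-Me replicate 3. Osm lost its call without vehicle replicate 1 or 3 or CDDO-Me replicate 2. Tnf rose from 3.79, 4.07 and 3.79 TPM to 35.4, 40.7 and 39.5 TPM (3.15 ± 0.25, adjusted p = 6.16e-09) and Il27, an interleukin-12 family cytokine, from 1.03, 1.51 and 2.11 TPM to 39.3, 37.2 and 43.5 TPM. Il1b was 1.61, 0.583 and 0.248 TPM with vehicle and 12.5, 3.31 and 2.31 TPM with CDDO-Me, a change just outside the threshold (adjusted p = 0.051). It passed under 7 of the 17 alternatives, among them without CDDO-Me replicate 3. Of 15 genes of the NF-kB system 4 were higher (Nfkbib, Nfkbie, Nfkbiz and Chuk) and 1, Rel, lower, with a median of 0.25. Nfkbib lost its call without scaling and Nfkbie without vehicle replicate 3 or CDDO-Me replicate 1. With array weights 9 were higher, and none was lower without vehicle replicate 3 or without CDDO-Me replicate 1 or 2. Of 17 genes of Toll-like receptors and the inflammasome 11 were higher and 2, Tlr4 and Tlr7, lower. Tlr9, which senses DNA, rose by 3.07 ± 0.26, Nlrp3 by 1.88 ± 0.21, Casp1 by 1.64 ± 0.25 and Casp4 by 1.66 ± 0.32, whereas Tlr4, the receptor for lipopolysaccharide, fell from 83.7, 84.1 and 85.1 TPM to 46.6, 44 and 44.5 TPM.

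Chemokines were split, with 3 of 16 higher (Ccl5, Cxcl1 and Cxcl16) and 7 lower, against 14.5% and 13.4% of all genes. Cxcl16 rose by 1.84 ± 0.20. Ccl9 fell from 1099.6, 1032 and 1063 TPM to 32.6, 14 and 16.1 TPM, Ccl6 from 1516, 1595 and 2101 TPM to 251, 288 and 179 TPM and Ccl3 from 40.7, 32.7 and 49.5 TPM to 10.4, 12.3 and 9.92 TPM. Ccl2, the monocyte chemokine, was 222, 258 and 164 TPM and 143, 148 and 82.8 TPM, with separate groups but no call (adjusted p = 0.105). It was called lower with array weights and with the replicate block.

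Surface and effector genes of macrophages also went both ways, beside 14.5% of all genes higher and 13.4% lower. Complement and Fc receptor genes were higher in 7 and lower in 4 of 15 cases, the latter C3ar1, C5ar1, Cfp and Fcgr2b. The activating receptor Fcgr4 rose from 179.5, 145 and 212 TPM to 1066, 997 and 1097 TPM and the inhibitory receptor Fcgr2b fell from 1135, 1059.5 and 1223 TPM to 224, 210.4 and 172 TPM. Cfb, complement factor B, rose by 3.48 ± 0.23, and C5ar1, the receptor for the C5a fragment, fell by 2.86 ± 0.28 on the log2 scale. Of 6 subunits of the phagocyte oxidase, which makes superoxide, 3 were higher, among them Cybb and Ncf1, and Ncf4 was lower, with Cybb at 167, 156 and 197 TPM and 537, 492 and 555 TPM. Scavenger and efferocytosis receptors were higher in 4 (Marco, Mertk, Axl and Pros1) and lower in 4 (Stab1, Gas6, Cd163 and Itgb5) of 12 cases. Axl, a receptor for dying cells, rose by 1.10 ± 0.21.

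Of 22 matrix and angiogenesis genes 5 were higher (Mmp8, Mmp19, Pdgfb, Pdgfc and Plaur) and 8 lower, while the fibroblast and stromal markers gave the sums above, whose part in this was not tested. Without vehicle replicate 1 or 2 or CDDO-Me replicate 1, 3 were higher. Spp1 (osteopontin) fell from 3279, 3914 and 2471 TPM to 328, 474 and 487 TPM and Mmp12, the macrophage elastase, from 2507, 2689.5 and 3302 TPM to 379, 350.4 and 361 TPM. Of 15 macrophage identity genes 4 were higher (Fcgr1, Mertk, Ly6c2 and Ccr2) and 3 lower (among them Maf and Cd68). For both lists the shares of all genes were 14.5% higher and 13.4% lower. Csf1r, the M-CSF receptor, and Spi1, the factor PU.1, were not called, at 722, 660.4 and 749 and 350.4, 331 and 395 TPM with CDDO-Me and 1007, 760.2 and 1086 and 310.4, 312 and 341 TPM with vehicle. Ccr2, the receptor for Ccl2, rose from 6.36, 7.59 and 6.3 TPM to 22.2, 29.3 and 27 TPM.

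Of 26 glycolysis and hypoxia genes 11 were higher and 1, Adm, lower, with a median of 0.52. The higher count was 7 without vehicle replicate 1 or without CDDO-Me replicate 1 and 17 with array weights. Slc2a1, the glucose transporter, rose from 33, 38.1 and 29 TPM to 67.6, 68.5 and 57 TPM and Hif1a by 0.93 ± 0.22, while Ldha, lactate dehydrogenase, was 888, 942 and 869.7 TPM with vehicle and 734, 786 and 686 TPM with CDDO-Me and was not called. Of 22 integrated stress response genes 1 was higher (Slc3a2) and 3 lower (Ddit3, Atf3 and Phgdh), against 14.5% and 13.4% of all genes. The lower count was thus near the share of all genes, and it was 7 under 3 of the alternatives. Atf3 fell from 535, 559 and 495 TPM to 242, 269 and 253 TPM, and Atf4, the central activator, had a change of -0.37 ± 0.18 that did not pass the test. Atf4 was called lower with array weights, with the 6 libraries alone and without the NRF2 KO CM replicates 3. Of 14 heat shock chaperones, which fold proteins, 2 were higher (Hspa8 and Hsp90ab1) and 2 lower (Hsp90aa1 and Hspd1), against 14.5% and 13.4% of all genes. Hsp90ab1 lost its call without scaling and Hsp90aa1 without vehicle replicate 2 or CDDO-Me replicate 3.

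The same drug and vehicle pair was also measured in the other media, and the interaction term tested each gene for a difference in effect. The labels do not say whether the CM of a group was made once or separately for each library. In control media 822 genes were called (6.02%). In KEAP1 KO CM the number was 3932 (28.8%, of which 14.5% higher and 14.3% lower) and in NRF2 KO CM 1313 (9.61%, of which 4.87% higher and 4.74% lower). By the interaction term, 2092 genes (15.3%) responded to CDDO-Me differently in WT CM than in media, 1834 (13.4%) differently than in NRF2 KO CM (7.61% more positive and 5.81% more negative in WT CM), and 0 (0%) differently than in KEAP1 KO CM in limma, where 224 had an unadjusted p under 0.05. Array weights found 26 genes in this last comparison. A p that misses the threshold does not show that WT CM and KEAP1 KO CM acted alike.

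The interferon gamma list differed between the media. Its median change was 4.98 in WT CM and 5.41 in KEAP1 KO CM, but -0.09 in media and -0.12 in NRF2 KO CM. The effect was larger in WT CM than in media for 33 of its 34 members by the interaction term, against 8.59% of all genes. For Iigp1 the difference from media was 9.17 ± 0.22 (adjusted p = 2.63e-16). Cxcl9 averaged 0.201 TPM in media/vehicle and 0.0322 TPM in media/CDDO-Me. The type I interferon, class I and class II lists had medians of -0.25, -0.07 and -0.16 in media.

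The alternative activation list had a median of -1.63 in WT CM, -1.62 in KEAP1 KO CM, 0.00 in media and -0.02 in NRF2 KO CM. Arg1 averaged 0.172 TPM in media/vehicle, so the fall in WT CM started from a level that media did not have. For 23 members the interaction term found the effect more negative in WT CM than in media, against 6.73% of all genes. Members near the floor in media/vehicle, such as Retnla, Rnase2a and Ccl24, could hardly fall there, so for them the difference was set by the fall in WT CM. Some genes had called effects of opposite direction in the 2 media. Mmp12 rose by 1.49 ± 0.29 in media and fell in WT CM (difference -4.31 ± 0.40, adjusted p = 1.66e-07), and Egr2 rose by 1.25 ± 0.20 in media (difference -2.67 ± 0.28, adjusted p = 1.01e-06). Fcgr4 and Fcgr1 moved by -2.53 ± 0.26 and -1.17 ± 0.16 in media against rises in WT CM, with differences of 5.23 ± 0.37 and 4.53 ± 0.23.

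**Figure D5:**
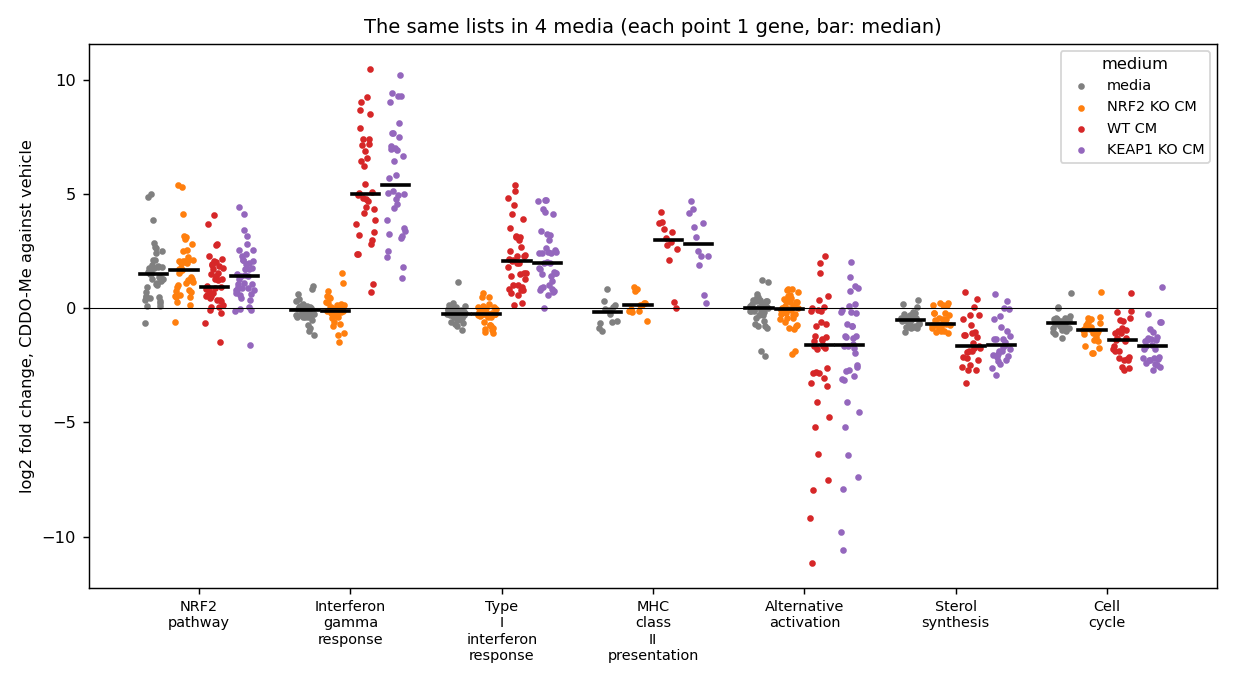
Log2 fold change of CDDO-Me against vehicle (y axis) for the members of 7 gene lists in 4 media, each point 1 gene and each black bar the median. The NRF2 list is above 0 in all 4 media, while the interferon gamma list (medians 4.98 in WT CM and 5.41 in KEAP1 KO CM) and the alternative activation list (-1.63 and -1.62) depart from 0 in WT CM and KEAP1 KO CM and lie near 0 in the other 2.

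The NRF2 list, by contrast, had positive medians throughout, of 0.94 in WT CM, 1.41 in KEAP1 KO CM, 1.67 in NRF2 KO CM and 1.48 in media. For Gclm the changes were 4.08 ± 0.27, 4.13 ± 0.27, 4.12 ± 0.27 and 3.83 ± 0.27 in that order. The NRF2 KO CM values include replicates 3 that stand apart, with 15702 and 16299 genes above 0 TPM against 17817 to 18993 in the other 22 libraries. Without them the effect differed between WT CM and NRF2 KO CM for 2859 genes.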

How the data were processed

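RNA-seq of 24 libraries was analysed, with samples grouped by GEO labels. Per the labels and the study's methods, the authors pseudo-aligned poly-A reads with kallisto to mouse GRCm39 cDNA; how transcripts were combined per gene is not given in the sources used here. The deposited values are TPM, which the authors gave for each library and which sum to 999365 to 999801 over named genes; 1 row without a gene name, which held 199 to 635 TPM, was left out. Read depth is not held in TPM.

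TPM were divided by trimmed-mean (TMM-type) scaling factors (trim 30% and 5%), and log2(value + 1) was fitted in limma 3.58.1 (R 4.3.3, trend) with 8 groups and all 24 libraries, leaving 16 residual degrees of freedom. Genes above 1 TPM in 3 libraries were kept. The pipeline was tested on simulated data. Tables and figures used Python 3.11.15, pandas 2.3.3 and matplotlib 3.10.9.

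The comparison, its gene lists and markers were chosen with earlier results of these data known. Named genes were the 12 largest rises and 12 largest falls among called genes with a mean of at least 5 TPM and no overlap, each list's key genes with up to 4 more by adjusted p, and the 6 genes with the smallest interaction p. Some of these are not reported here, and genes named after seeing values are marked. Alternatives were RLE scaling, no scaling, no filter, a mean of at least 5 TPM, pseudocounts 0.1 and 5, no trend, array weights, a replicate block, the compared groups alone, NRF2 KO CM replicates 3 left out, and each replicate left out. Promoters were RefSeq (GRCm38.p6), found for 9987 of 13661 genes. The promoter check is void for lists with under 80% of members found.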

Additional observations from a re-analysis of the deposited data

Results flagged for a closer look

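Results were singled out here where the CDDO-Me effect in WT CM differed from that in another medium by the interaction term of the fit over all 24 libraries. That was the case for 2092 genes against media and for 1834 against NRF2 KO CM.

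Among interferon-responsive genes, the log2 effect in WT CM minus that in media was 10.66 for Cxcl9, 9.17 for Iigp1, 7.18 for Serpina3f and 4.69 for Irgm2. It was 4.84 for the class II chain H2-Ab1. Among the Fc receptors it was 5.23 for Fcgr4 and 4.53 for Fcgr1, both of which were lower with CDDO-Me in media (adjusted p = 2.3e-06 and 8.48e-05) and higher in WT CM.

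Of the genes that fell in WT CM, the difference was -9.07 for Arg1, -1.91 for Sqle, -4.31 for Mmp12 and -2.67 for Egr2. The last 2 rose with CDDO-Me in media (adjusted p = 0.00235 and 0.000433). Arg1 was near the floor in media/vehicle and could hardly fall there.

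Within the NRF2 pathway the difference was -1.43 for Gclc, -0.96 for Gstm1, -0.78 for Hmox1 and -0.68 for Txnrd1, all raised less in WT CM than in media, and 1.71 for Txn1, raised more. The adjusted p of these 5 differences ranged from 7.26e-05 for Txn1 to 0.0461 for Txnrd1.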

How the results depend on the processing

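TPM values carry no depth, so how depth limits precision is unknown, and 3 libraries a group set it. Other scaling, filters, pseudocounts and no trend left the 4 counts within 1.5 times. With array weights the genes called were 7122 (WT CM/CDDO-Me against WT CM/vehicle), 5405 (difference from media), 26 (from KEAP1 KO CM) and 4493 (from NRF2 KO CM). Without the NRF2 KO CM replicates 3 they were 5839, 3832 and 2859 for the first, second and last of these, and of the 5839 genes 3811 were among the 3812. With the compared groups alone the differences from media and from NRF2 KO CM numbered 3629 and 1135. The cause of these moves was not tested. Leaving out 1 replicate at a time gave 3160 to 3391, 1693 to 1939, 0 to 1 (1 without KEAP1 KO CM/CDDO-Me replicate 2) and 1551 to 2358. The replicate numbers were not treated as pairs in the main fit. Deviations of same-numbered CDDO-Me and vehicle libraries correlated at 0.06, 0.34 and 0.37. Each CDDO-Me library correlated best with the vehicle library of its own number, whereas vehicle replicate 1 correlated best with CDDO-Me replicate 2 (0.12). Whether libraries of the same number share a source was not tested. With the replicate block the counts were 4599, 2894, 0 and 2578. Of 850 counts over list members under the alternatives, 765 stayed within 1.5 times. Of 3005 values of the named genes, 2925 kept direction and call, 46 lost and 33 gained a call, and 1 reversed, namely Stat6 at -0.08 without scaling.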

Other observations

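Genes outside the lists and named after their values were seen showed further change with CDDO-Me in WT CM. Among surface molecules, Ly6a (the Sca-1 antigen) went from 108, 95.2 and 37.1 TPM with vehicle to 3509, 3489 and 3654 TPM, Itgal, the alpha chain of the integrin LFA-1, from 2.34, 2.24 and 4.47 TPM to 204, 199 and 174 TPM, and its ligand Icam1 from 28.2, 25.5 and 28.2 TPM to 265, 271 and 288 TPM. Klrk1, which encodes the receptor NKG2D, went from 0.359, 0.0602 and 0.37 TPM to 46.3, 44.5 and 102 TPM, and Hcar2, the niacin receptor, from 0.507, 0.64 and 0.758 TPM to 64.8, 74.6 and 50.5 TPM. The groups did not overlap for any of these 5 genes. Clec9a and Xcr1, known as markers of cross-presenting dendritic cells, went from 0.0793, 0 and 0.497 to 95.4, 95.5 and 123 TPM and from 0.029, 0.045 and 0.0217 to 4.69, 3.97 and 2.92 TPM, while Cd209a, the remaining marker above 1 TPM, fell from 3.23, 3.78 and 3.69 TPM to 0.0263, 0 and 0 TPM. The other 3 dendritic cell markers (Flt3, Ccr7 and Zbtb46) were under 1 TPM in all 6 libraries.

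The prostaglandin synthases moved in opposite directions: Ptgs2 (COX-2) rose from 0.274, 0.256 and 0.732 TPM to 39.7, 46.4 and 57.9 TPM and Ptgs1 (COX-1) fell from 111, 81.2 and 135 TPM to 2.12, 1.3 and 2.81 TPM. Of the arginine-handling enzymes, Ass1, which regenerates arginine from citrulline, rose from 9.17, 8.59 and 6.69 TPM to 233, 154 and 93.6 TPM beside the fall of Arg1 given above. Of genes for iron transport, Tfrc, the transferrin receptor, was at 182, 203 and 235 TPM and 11.9, 18.4 and 17.5 TPM, and Trf, transferrin, at 1136, 1268 and 1013 TPM and 189, 190.1 and 218 TPM. Of genes known from osteoclasts and tissue macrophages, Atp6v0d2 fell by 3.59 ± 0.25, Itgb3 by 3.68 ± 0.23 and Acp5 by 2.80 ± 0.25 on the log2 scale. Fabp4, a fatty acid carrier, fell from 252, 289 and 202 TPM to 17.7, 17.1 and 12.1 TPM. Samhd1, which cuts free deoxynucleotides, rose from 245, 228 and 294 TPM to 2716, 2495 and 3122 TPM.

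The epithelial adhesion gene Cdh1 (E-cadherin), looked up as 1 of 4 epithelial markers, was 3.06, 4.04 and 3.46 TPM with vehicle and 0.0109, 0 and 0.021 TPM with CDDO-Me. Its mean in media/vehicle was 0.0429 TPM. The other 3 markers were under 1 TPM in all 6 libraries.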
